A study of Mus musculus with 21 samples.

Results

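A set of 10 genes that macrophages use to take up dead cells and to handle the lipid in them was followed through muscle repair: Gpnmb, Trem2, Apoe, Lgals3, Cd9, Cd63, Fabp5, Mertk, Abca1 and Spp1. The genes were chosen by name and joined to probe sets through the probe annotation of the array, with the brightest single-symbol probe set standing for a gene. Of the 10 genes, 9 were measured, out of 19752 genes in the whole table, and all 9 passed the filter on low values. Spp1, which encodes the secreted protein osteopontin, has no probe set in that annotation and was not analysed here. Fabp5 has 2 probe sets, and the brighter was used.

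The tissue was whole tibialis anterior muscle of the lower leg, from male C57BL/6 mice aged 8 weeks, on 21 expression arrays. Mice were Foxp3-DTR+, a genotype that makes regulatory T cells sensitive to diphtheria toxin, or Foxp3-DTR-. Both genotypes received cardiotoxin, a venom toxin that kills muscle fibres, at day 0, and diphtheria toxin every other day from then until the muscle was taken at day 4 or day 8. The only sample labelled as a control was 1 DTR+ muscle at day 0. Sample titles divide the other samples into CTx and xINJ, while the remaining labels describe both as injured, so xINJ is used here only as a name. Each DTR- group, CTx or xINJ and day 4 or day 8, held 3 samples. Among the DTR+ groups, CTx held 2 at day 4 and 3 at day 8, and xINJ held 1 and 2. DTR- xINJ day 4 replicate 1 carries a time tag of day 8 against its title. Whether replicates are different animals is not in the labels. P-values therefore cover the spread among these samples alone, and that spread may be technical.

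Macrophages that enter injured muscle first engulf dead fibres and later support new ones. Engulfed membranes load the cell with cholesterol and fatty acids, which are bound, stored or exported. Genes of this programme are known from lipid-laden macrophages of several tissues, yet most are also made elsewhere: tetraspanins such as Cd9 and Cd63 are found in many cell types. The RNA came from whole muscle, so more macrophages and more RNA per macrophage cannot be told apart. All 12 mature fibre markers passed the filter, as did all 11 macrophage markers that the table holds. The macrophage list, averaged on the log2 scale, lay between 10.42 and 11.03 in CTx muscle at day 4, between 8.87 and 9.65 in CTx muscle at day 8, and between 6.72 and 8.27 in xINJ muscle. Its differences are given below with the contrasts, and its part in them was not tested.

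For Gpnmb and Lgals3 the sequence around the annotated start of transcription is shown, 100 bases before it and 30 from it. Gpnmb had the largest difference between CTx and xINJ muscle at day 4. Lgals3 was the gene called between genotypes at day 8, a call that most fits leaving out 1 sample lost. The sequences are from RefSeq, build GRCm38.p6, and lie on the + strand at chr6:49036418-49036547 for Gpnmb and chr14:47373760-47373889 for Lgals3. Capitals mark TGAGTCA read on the other strand, a sequence bound by AP-1 factors.
Gpnmb: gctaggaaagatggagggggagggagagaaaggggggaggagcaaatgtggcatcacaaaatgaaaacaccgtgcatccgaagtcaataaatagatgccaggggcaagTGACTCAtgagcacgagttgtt
Lgals3: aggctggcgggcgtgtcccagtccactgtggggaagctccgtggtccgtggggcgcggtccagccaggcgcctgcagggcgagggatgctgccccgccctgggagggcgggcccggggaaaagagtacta
The match in Gpnmb begins 8 bases after the first transcribed base. In windows of 300 bases, TGAGTCA on either strand was found in 1 of 12 promoters listed for 9 of the 10 genes, and in 5.2% of 32851 promoters of all genes. CACGTG was found at Abca1 (7.15% of all promoters), CATGTG at Cd9 (14.2%) and GAGGAAGT at 1 of the 2 Spp1 promoters (3.2%), while AGGTCA repeated after 4 bases was found at none (0.0152%). The Lgals3 window held none of these. Fabp5 has no entry in the promoter table. A match describes the letters only.

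**Figure D1:**
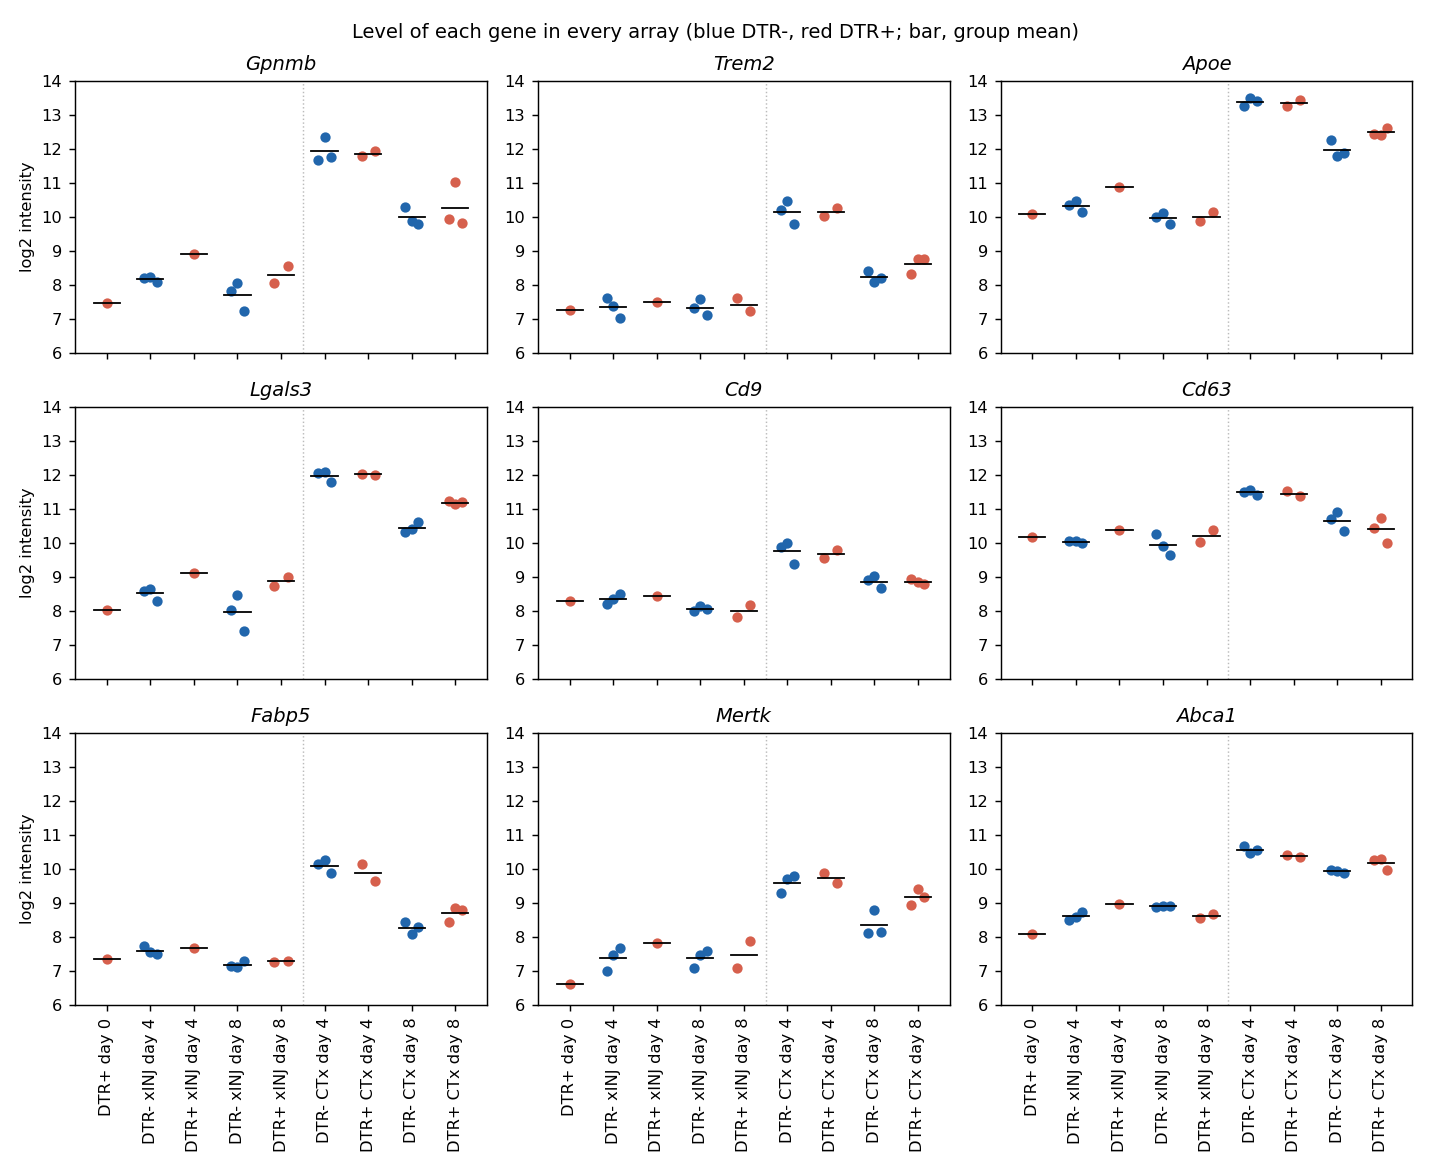
Level of each of the 9 measured genes, as log2 of the deposited intensity, in each of the 21 arrays (points, blue for DTR- and red for DTR+) with the mean of each group (bar). In every panel CTx muscle at day 4 is the highest, and the dotted line divides xINJ and day 0 muscle from CTx muscle.

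Levels are log2 intensities, and each probe set has its own scale, so a level is compared between samples and not between genes. Differences are log2 fold changes with their standard error from 1 limma fit over all 21 samples and 13278 genes, with Benjamini-Hochberg adjustment within a comparison and a threshold of 0.05 on the adjusted p.

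The first contrast, CTx over xINJ in DTR- mice at day 4, asked how far the genes separate the 2 kinds of muscle. All 9 genes were higher in CTx muscle, between 2.65-fold for Cd9 and 13.5-fold for Gpnmb, and no gene's groups overlapped. Of all genes tested, 26.1% were called higher, and 28.6% were higher without overlap. The median log2 fold change was 2.51 over the 9 genes and -0.01 over all genes. The macrophage list was higher by 3.31. Markers of other cells were higher too, 12 of 12 of muscle stem cells and regenerating fibres (median 3.09) and 7 of 8 of monocytes (median 1.78), and their part was not tested.

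Among the surface proteins that meet debris, Trem2, a receptor for lipids and lipoproteins, stood at 10.21, 10.47 and 9.78 in CTx muscle and at 7.61, 7.37 and 7.02 in xINJ muscle. Every CTx sample lay above every xINJ sample, with a log2 fold change of 2.82 ± 0.20 (SE, limma adjusted p = 2.18e-09). Mertk, a receptor tyrosine kinase that recognises bridging proteins on dead cells, stood at 9.29, 9.71 and 9.79 against 6.99, 7.48 and 7.66. The difference was 2.22 ± 0.24 (SE, limma adjusted p = 4.29e-07).

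Gpnmb, a transmembrane glycoprotein of lipid-laden and lysosome-rich macrophages, stood at 11.67, 12.35 and 11.77 in CTx muscle and at 8.19, 8.24 and 8.09 in xINJ muscle. Its log2 fold change was 3.76 ± 0.27 (SE, limma adjusted p = 3.03e-09). Lgals3, which encodes the lectin galectin-3, stood at 12.05, 12.08 and 11.80 against 8.59, 8.65 and 8.30, a difference of 3.47 ± 0.20 (SE, limma adjusted p = 1.65e-10). These 2 genes had the widest gaps of the 9.

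The genes that move lipid were also apart. Apoe, an apolipoprotein of particles that carry exported cholesterol, stood at 13.27, 13.49 and 13.42 against 10.35, 10.47 and 10.14. The difference was 3.07 ± 0.15 (SE, limma adjusted p = 3.75e-11). Abca1, the pump that passes cholesterol to apolipoproteins, stood at 10.67, 10.48 and 10.55 against 8.51, 8.59 and 8.73, a difference of 1.96 ± 0.12 (SE, limma adjusted p = 3.39e-10). Fabp5, a cytosolic carrier of fatty acids, stood at 10.15, 10.26 and 9.88 against 7.74, 7.54 and 7.49, a difference of 2.51 ± 0.16 (SE, limma adjusted p = 6.06e-10).

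The tetraspanins, which organise membrane proteins, had the smallest differences. Cd9, at the cell surface, stood at 9.88, 10.01 and 9.38 against 8.20, 8.36 and 8.49, a difference of 1.41 ± 0.16 (SE, limma adjusted p = 1.09e-06). Cd63, of late endosomes and lysosomes, stood at 11.51, 11.55 and 11.42 against 10.07, 10.06 and 9.99, a difference of 1.45 ± 0.19 (SE, limma adjusted p = 4.16e-06).

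**Figure D2:**
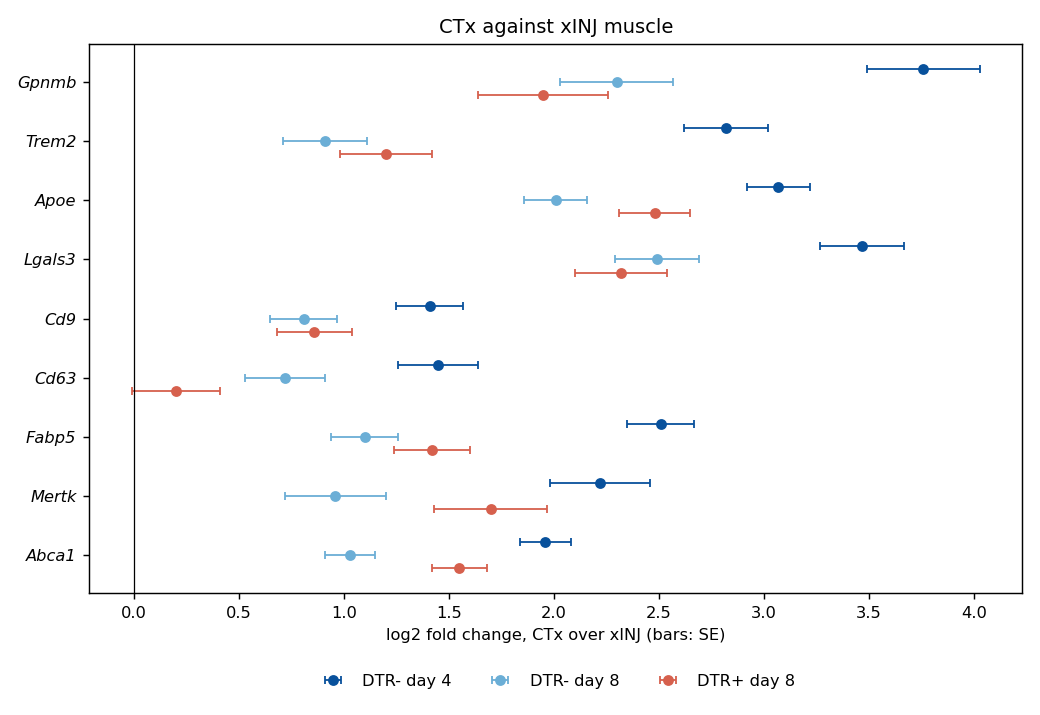
Difference between CTx and xINJ muscle as a log2 fold change (x axis, CTx over xINJ) with its standard error, for each gene in DTR- mice at day 4 and day 8 and in DTR+ mice at day 8. All points lie above 0, and the Cd63 point for DTR+ mice, at 0.20, is the lowest.

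By day 8 DTR- mice still had 9 of 9 genes called higher in CTx muscle without overlap, beside 10.4% of all genes called higher and 23.6% higher without overlap. The median of the 9 genes was 1.03, and the macrophage list was higher by 2.10. Lgals3 was 5.62-fold, Gpnmb 4.92-fold and Apoe 4.03-fold higher, and the other 6 genes were between 1.64-fold (Cd63) and 2.14-fold (Fabp5) higher. Calls for Cd63 (0.72, limma adjusted p = 0.0145) and Mertk (0.96, limma adjusted p = 0.0095) rested on single samples. Without DTR- CTx day 8 replicate 2 the adjusted p was 0.0808 for Cd63 and 0.0654 for Mertk. It was 0.0883 for Cd63 without DTR- xINJ day 8 replicate 3 and 0.0621 for Mertk without DTR- xINJ day 8 replicate 1. Centring the arrays on their median put the adjusted p of Cd63 at 0.0554.

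In DTR+ mice at day 8, 8 of 9 genes were higher in CTx muscle, all without overlap, beside 16.7% of all genes called and 29.8% without overlap. Apoe was 5.57-fold, Lgals3 5.0-fold and Gpnmb 3.87-fold higher. Cd63 stood at 10.45 and 10.74 in CTx replicates 1 and 2, and CTx replicate 3 lay below both xINJ samples, at 10.02 and 10.38, so its groups overlapped. Its difference was 0.20, with a 95% confidence interval of -0.25 to 0.64 (limma adjusted p = 0.554). Cd9 (0.86, limma adjusted p = 0.00164) had an adjusted p of 0.0555 without DTR+ xINJ day 8 replicate 1. The macrophage list was higher by 2.08 in CTx muscle.

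Set against the mean of the macrophage list in the same sample, the genes fell into different patterns. In DTR- mice at day 4, Gpnmb (0.45), Lgals3 (0.16) and Apoe (-0.24) differed from the list by an amount at which CTx and xINJ samples overlapped. The other 6 genes lay lower relative to the list in CTx muscle, without overlap, by 0.49 for Trem2, 0.80 for Fabp5, 1.09 for Mertk, 1.35 for Abca1, 1.86 for Cd63 and 1.90 for Cd9. In DTR+ mice at day 8, Apoe (0.39) and Lgals3 (0.24) were higher relative to the list in CTx muscle without overlap. Cd63 (-1.89), Cd9 (-1.22), Trem2 (-0.88), Fabp5 (-0.66) and Abca1 (-0.53) were lower without overlap, and Gpnmb and Mertk overlapped. In DTR- mice at day 8, Lgals3 (0.39), Gpnmb (0.20) and Apoe (-0.09) overlapped, and the other 6 genes were lower without overlap, by 1.01 (Fabp5) to 1.39 (Cd63). The macrophage list itself was higher in CTx muscle in these contrasts, so a gene with no difference would also lie lower on this scale. How many of all genes do so was not computed. These are descriptions with no test.

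Of lists of related genes, those of uptake and digestion were mostly higher in DTR- CTx muscle at day 4, beside 26.1% of all genes called higher. Of 27 tested genes of apoptotic cell uptake, 19 were higher and 1 was lower (median 1.21), among them Axl (1.36), a receptor related to Mertk, and the bridging proteins Gas6 (0.59) and Pros1 (1.10). Mfge8, another bridging protein, was at -0.07 and did not pass. C1qb, a subunit of the complement protein that tags debris, was higher by 3.23. In the list of TREM2 and DAP12 signalling, 14 of 18 were higher (median 0.86), with Tyrobp, the adaptor of Trem2, at 3.78. The list of lysosome and tetraspanin genes gave 18 higher and 1 lower of 25 (median 1.06), with Cd68 at 3.66 and the tetraspanin Cd81 at 0.79. Partners of osteopontin and galectins gave 14 of 16 higher (median 1.5), with Cd44, a hyaluronan and osteopontin receptor, at 2.17.

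Lists of lipid genes were divided. Over all 13278 genes tested, 26.1% were called higher, 3472 of the 6190 called in either direction. Of 15 tested genes of cholesterol efflux and the liver X receptors, 5 were higher and 2 lower (median 0.31). The higher ones included Abcg1 (2.63), a cholesterol pump like Abca1, Lipa (2.72), the lysosomal lipase, and Npc2 (1.99), which binds cholesterol inside lysosomes. Nr1h3, one of the receptors, was at 0.02 and did not pass. Of 18 genes of lipid uptake and storage, 5 were higher and 10 lower (median -0.60). Msr1, the macrophage scavenger receptor, was higher by 2.53 and Plin2, a lipid droplet coat protein, by 0.75. Vldlr (-2.59), Cd36 (-1.01), Fabp4 (-0.80) and Lpl (-0.66), which fibres, endothelium or adipocytes also make, were lower. Beside them 11 of 12 mature fibre, 8 of 12 endothelial and 2 of 7 adipocyte markers were lower, and their part was not tested. Cholesterol synthesis gave 4 higher and 3 lower of 20 (median 0.01), with Srebf2, its transcription factor, at 1.22 and the enzyme Hmgcs1 at 0.10, which did not pass. The list of MiT factors and genes shared with osteoclasts gave 8 higher and 2 lower of 16 (median 0.34), with Acp5, an acid phosphatase, at 2.19 and Mitf at -0.19, which did not pass.

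The next contrast set day 8 against day 4 within CTx muscle and so followed the genes as repair went on. In DTR- mice all 9 fell without overlap, beside 18.0% of all genes that fell and 24.9% that were lower without overlap. The median was -1.41 for the 9 genes, and the macrophage list moved by -1.82. Gpnmb fell from 11.93 ± 0.37 to 9.99 ± 0.27 (SD, n = 3 each), a log2 fold change of -1.94 ± 0.27 (SE, limma adjusted p = 3.5e-05). Trem2 fell from 10.16 ± 0.35 to 8.23 ± 0.17 (SD, n = 3 each), a change of -1.92 ± 0.20 (SE, limma adjusted p = 2.07e-06). Fabp5 fell from 10.10 ± 0.20 to 8.27 ± 0.17 (SD, n = 3 each), a change of -1.83 ± 0.16 (SE, limma adjusted p = 4.15e-07). The other 6 genes moved by -1.52 (Lgals3), -1.41 (Apoe), -1.25 (Mertk), -0.89 (Cd9), -0.84 (Cd63) and -0.64 (Abca1).

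**Figure D3:**
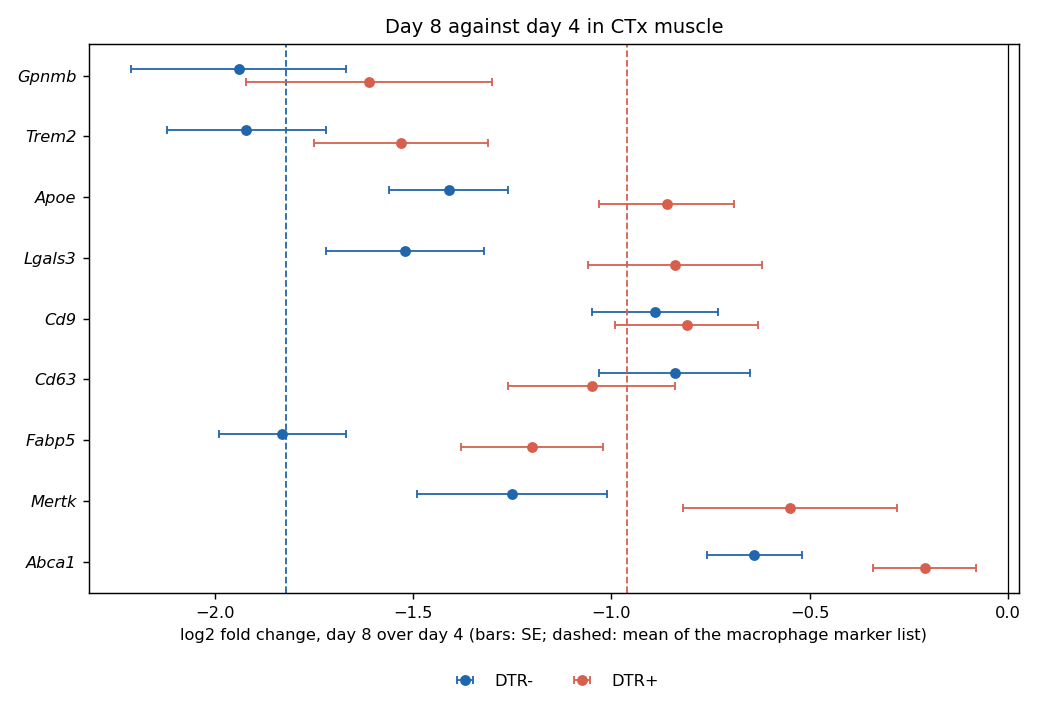
Change within CTx muscle between days 4 and 8 as a log2 fold change (x axis, day 8 over day 4) with its standard error, for DTR- (blue) and DTR+ (red) mice. Dashed lines mark the mean change of the macrophage marker list, -1.82 in DTR- and -0.96 in DTR+ mice.

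In DTR+ mice 7 of 9 genes fell, beside 8.24% of all genes. All 9 were lower at day 8 without overlap, as were 21.4% of all genes. Gpnmb moved by -1.61, Trem2 by -1.53, Fabp5 by -1.20, Cd63 by -1.05, Apoe by -0.86, Lgals3 by -0.84 and Cd9 by -0.81. Mertk stood at 9.87 and 9.59 at day 4 and at 8.94, 9.42 and 9.18 at day 8, a change of -0.55 (95% confidence interval -1.11 to 0.00, limma adjusted p = 0.203). Abca1 stood at 10.40 and 10.34, then at 10.26, 10.28 and 9.96, a change of -0.21 (95% confidence interval -0.49 to 0.07, limma adjusted p = 0.357). For Lgals3 (limma adjusted p = 0.0188) the adjusted p was 0.116 without DTR+ CTx day 4 replicate 2, 0.0741 without replicate 3 of that group and 0.0525 without DTR+ CTx day 8 replicate 2. For Cd9 (limma adjusted p = 0.00697) it was 0.0755 without DTR+ CTx day 4 replicate 3.

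Relative to the macrophage list, Abca1 was higher at day 8 than at day 4 in both genotypes without overlap, by 1.18 in DTR- and 0.76 in DTR+ mice. In DTR- mice the same held for Cd63 (0.98), Cd9 (0.92) and Lgals3 (0.29). In DTR+ mice Mertk was higher (0.41) and Trem2 lower (-0.57) without overlap. The other genes overlapped between the days on this scale. Because the list itself fell, a gene with no change would lie higher on it, and the share of all genes was not computed.

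Related genes also fell in DTR- mice: 12 of 18 of TREM2 and DAP12 signalling, 17 of 27 of apoptotic cell uptake with 1 that rose, 16 of 25 of lysosome and tetraspanin genes, and 5 of 15 of cholesterol efflux. In DTR+ mice 7, 8, 11 and 2 of the same lists fell, and none rose. Partners of osteopontin and galectins gave 10 of 16 that fell in DTR- mice, and 5 that fell and 1 that rose in DTR+ mice, and MiT factor and osteoclast-shared genes gave 7 that fell and 1 that rose of 16, and 3 that fell. The lists of cholesterol synthesis (4 fell and 1 rose of 20 in DTR- mice, 2 fell in DTR+ mice) and of lipid uptake and storage were divided. Of 18 lipid uptake and storage genes in DTR- mice 5 rose, among them Vldlr (1.93), and 4 fell, among them Msr1 (-1.74) and Plin2 (-0.65), with a median of 0.21. In DTR+ mice 1 rose and 2 fell (median -0.06). Over all genes tested 18.0% fell in DTR- and 8.24% in DTR+ mice. Tyrobp moved by -2.29 in DTR- and -1.13 in DTR+ mice, Abcg1 by -1.63 and -0.61, and Lipa by -1.68 and -1.31. In xINJ muscle of DTR- mice no gene of the 9 changed from day 4 to day 8 by limma's test after adjustment, beside 0.0678% of all genes. An unadjusted p under 0.05 was found for 4 of them, beside 4.77% of all genes. Their changes lay between -0.55 for Lgals3 and 0.29 for Abca1, and the macrophage list moved by -0.61. Without overlap 4 were lower and 1 was higher, beside 5.28% and 2.12% of all genes.

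The comparison of genotypes asked how the genes differ where regulatory T cells were targeted. In CTx muscle at day 4 the 9 genes differed by -0.21 to 0.14, with a median of -0.04. None passed limma's test after adjustment, beside 0.00753% of all genes, and none had an unadjusted p under 0.05, beside 2.06% of all genes. Abca1 alone did not overlap, lower in DTR+ mice by 0.19 (95% confidence interval -0.47 to 0.09), beside 3.39% of all genes lower without overlap. Gpnmb stood at 11.78 and 11.94 in DTR+ mice and at 11.67, 12.35 and 11.77 in DTR- mice, a difference of -0.07 with a 95% confidence interval of -0.71 to 0.57. The interval was -0.42 to 0.50 for Lgals3, -0.42 to 0.70 for Mertk and -0.39 to 0.31 for Apoe, so differences of those sizes could not be told from none. The macrophage list differed by -0.21.

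In CTx muscle at day 8, Lgals3 was higher in DTR+ mice. It stood at 11.22, 11.14 and 11.19 in DTR+ and at 10.31, 10.41 and 10.63 in DTR- mice, and the groups did not overlap. The difference was 1.66-fold, 0.73 ± 0.20 on the log2 scale (SE, n = 3 and 3, limma adjusted p = 0.0437). Lgals3 was the 1 gene of 9 that passed, beside 3.03% of all genes called higher. The call was lost when any 1 of the 6 samples was left out (log2 fold change 0.66 to 0.82, adjusted p 0.0619 to 0.191). It was also lost with arrays centred on their median (adjusted p = 0.0607), with no filter on low values (adjusted p = 0.0511) and with eBayes set to trend and robust (adjusted p = 0.0504), and with the sample of doubtful day placed at day 8 (adjusted p = 0.0753), though the direction stayed.

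Mertk stood at 8.94, 9.42 and 9.18 in DTR+ and at 8.10, 8.78 and 8.15 in DTR- mice, a difference of 0.84 ± 0.24 (SE, limma adjusted p = 0.0569) without overlap. Same-numbered samples of these groups deviated together, and with the replicate number as a block Mertk passed (limma adjusted p = 0.002), as did Lgals3 (limma adjusted p = 0.0254). The labels give no such pairing, and it was read from these same values, so the block is no independent support. The block covered all 21 samples, though same-numbered samples of the genotypes in CTx muscle at day 4 correlated at -0.448 and -0.069. Mertk also passed with the sample of doubtful day placed at day 8 (limma adjusted p = 0.0416), where Lgals3 did not. When 1 sample was left out, Mertk passed in 1 of 6 fits (log2 fold change 0.72 to 1.06, limma adjusted p 0.0268 to 0.256). The fit that passed left out DTR- CTx day 8 replicate 2. Apoe stood at 12.43, 12.41 and 12.63 against 12.25, 11.80 and 11.89, a difference of 0.51 ± 0.15 (SE, limma adjusted p = 0.0707), again without overlap. When 1 sample was left out, Apoe also passed in 1 of 6 fits (0.42 to 0.64, limma adjusted p 0.0377 to 0.335). That fit left out DTR- CTx day 8 replicate 1.

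The differences of the other 6 genes were 0.42 for Fabp5, 0.38 for Trem2, 0.26 for Gpnmb, 0.24 for Abca1, 0.00 for Cd9 and -0.26 for Cd63, and none passed. Without overlap 4 of the 9 genes were higher, beside 9.78% of all genes. The median of the 9 genes was 0.38, that of all genes -0.01. The macrophage list was higher by 0.64 in DTR+ mice, with 4 of its 11 genes called, and 7 of 8 T cell and natural killer cell markers were higher (median 1.54). Of monocyte markers 3 of 8 were higher (median 0.92), beside 3.03% of all genes. Of endothelial markers 2 of 12 were lower and none was higher (median -0.40). The part of these cells was not tested. Relative to the macrophage list, Lgals3 (0.09), Mertk (0.20), Apoe (-0.13), Trem2 (-0.26) and Gpnmb (-0.38) overlapped between genotypes. Cd63 (-0.90), Cd9 (-0.64), Abca1 (-0.40) and Fabp5 (-0.22) were lower in DTR+ mice without overlap on that scale. A gene with no difference would also lie lower there, because the list was higher, and the share of all genes was not computed.

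**Figure D4:**
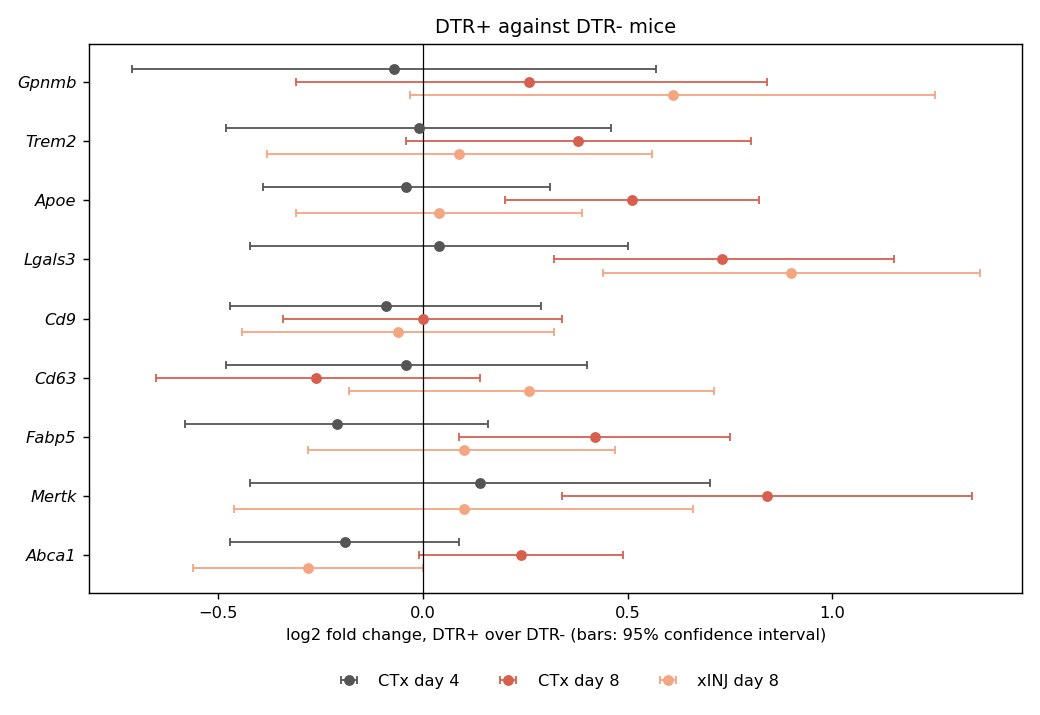
Difference between genotypes as a log2 fold change (x axis, DTR+ over DTR-) with its 95% confidence interval, for each gene in CTx muscle at day 4 and day 8 and in xINJ muscle at day 8. Lgals3 is the gene that passed the test at day 8, at 0.73 in CTx and 0.90 in xINJ muscle. When 1 sample was left out, it passed in 0 of 6 fits for CTx and 1 of 5 for xINJ muscle.

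Over all genes tested in CTx muscle at day 8, 3.03% were called higher in DTR+ mice, 402 of the 489 called in either direction. Among related genes, 5 of 18 of TREM2 and DAP12 signalling were higher in DTR+ mice, among them Tyrobp (0.90) and Ms4a6d (0.94). Of apoptotic cell uptake 6 of 27 were higher, with Rac2 (1.44), a GTPase of blood cells, and C1qa (1.14). Axl (0.36), Gas6 (0.05) and Mfge8 (0.07) did not pass. Of cholesterol efflux 2 of 15 were higher, Abcg1 (0.85) and Npc2 (0.75). Of lysosome and tetraspanin genes 3 of 25 were higher, with Atp6v0d2, a proton pump subunit of osteoclasts and macrophages, at 2.09. Partners of osteopontin and galectins gave 3 of 16, with Mmp12, the macrophage elastase, at 1.72, and MiT factor and osteoclast-shared genes gave 2 of 16, Tfec (1.40) and Acp5 (0.99). Of cholesterol synthesis genes none of 20 passed (median 0.02). Of lipid uptake and storage genes none of 18 was higher and 1, Cav1 (-0.68), was lower (median -0.04).

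In xINJ muscle at day 8, Lgals3 stood at 8.72 and 9.01 in DTR+ and at 8.01, 8.48 and 7.40 in DTR- mice. The difference was 1.87-fold, 0.90 ± 0.22 on the log2 scale (SE, n = 2 and 3, limma adjusted p = 0.0334), without overlap, beside 15.4% of all genes higher in that way. It was the 1 gene of 9 called higher, beside 1.81% of all genes. The call was lost in 4 of 5 fits that left out 1 sample. The adjusted p was 0.131 without DTR+ xINJ day 8 replicate 1, 0.311 without replicate 2 of that group, 0.0831 without DTR- xINJ day 8 replicate 1 and 0.171 without replicate 3 of that group. It was 0.0806 with the sample of doubtful day placed at day 8, 0.0594 after quantile normalization and 0.102 in a fit of these groups alone. Gpnmb (0.61, limma adjusted p = 0.447) and Abca1 (-0.28, limma adjusted p = 0.393) did not pass, though Abca1 was lower without overlap, as were 14.7% of all genes. The macrophage list was higher by 0.66. Relative to it, Lgals3 (0.24), Gpnmb (-0.05) and Mertk (-0.56) overlapped between genotypes. The other 6 genes were lower in DTR+ mice without overlap on that scale, by 0.39 (Cd63) to 0.94 (Abca1). As the list was higher, a gene with no difference would lie lower too, and the share of all genes was not computed.

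Whether the genotype difference itself changed was tested next. From day 4 to day 8 in CTx muscle it grew by 0.70 for Mertk, 0.69 for Lgals3, 0.63 for Fabp5 and 0.55 for Apoe, and none of the 9 genes passed limma's test (adjusted p 0.300 to 0.966). After adjustment 0.587% of all genes passed. Fabp5, Apoe, Lgals3 and Abca1 (0.43) had an unadjusted p under 0.05, beside 10.4% of all genes, and Mertk did not. The genotype difference of the macrophage list grew by 0.85. Between CTx and xINJ muscle at day 8 none passed either (adjusted p 0.411 to 1.0), beside 0.233% of all genes. Abca1 (0.52) was the 1 gene with an unadjusted p under 0.05, beside 6.5% of all genes, and the macrophage list differed by -0.02.

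Apart from the DTR+ day 0 sample, the samples fall into CTx and xINJ groups that differ in all 9 genes in DTR- mice. Correlations across all 21 samples therefore mix differences between groups with those within. Pearson correlations of log2 level lay between 0.805 for Abca1 and Cd63 and 0.982 for Apoe and Lgals3. The genes outside the set most like each one were, by the same measure, Cd68 and Tlr13 for Gpnmb (0.986 each), Slc7a7 for Trem2 (0.985), Vash2 for Apoe (0.992), Eef1a1 for Lgals3 (0.991), Gnai2 for Cd9 (0.980), Prelid2 for Cd63 (0.942), Gusb for Fabp5 (0.991), Cyba for Mertk (0.977) and Arrdc1 for Abca1 (0.975).

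The order of the groups was alike at its top. Both CTx groups of day 4 came first for all 9 genes, and their means differed by less than the larger SD for 8 of them. Abca1 was the exception, at 10.57 ± 0.09 (SD, n = 3) in DTR- and 10.37 ± 0.04 (SD, n = 2) in DTR+ mice, where the samples did not overlap. CTx muscle at day 8 came next by mean for every gene, with DTR+ above DTR- for 7. For Gpnmb that gap (0.26) was under the larger SD. For Cd63, DTR+ CTx muscle at day 8 (10.40) lay only 0.02 above the DTR+ xINJ day 4 sample (10.38), less than its SD. The DTR+ day 0 sample lay below every group mean for Gpnmb (7.45), Trem2 (7.27), Abca1 (8.08) and Mertk (6.60, under the filter level for low values on that array). Single xINJ samples were lower still for Gpnmb (7.23) and Trem2 (down to 7.02), and for these 2 genes its gap to the next group was under that group's SD. For Apoe it stood at 10.07, Lgals3 8.03, Cd9 8.28, Cd63 10.17 and Fabp5 7.34, inside the order of the xINJ groups.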

How the data were processed

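RNA of 21 muscle samples was measured on Affymetrix Mouse Gene 1.0 ST arrays. The deposited values are linear intensity values, 1 for each probe set. Per the submitters' processing notes the authors used RMA and Affymetrix Power Tools, with no version stated. Here log2 was taken, and 21425 of 24922 probe sets with 1 gene symbol gave 19752 genes. Tests covered the 13278 genes that exceeded the 40th percentile (log2 6.62 to 6.84 over the arrays) on 2 arrays or more. One limma fit (limma 3.58.1, R 4.3.3) held a mean for each of 9 groups, with 11 contrasts, 12 residual and 6.56 prior degrees of freedom. With 3 against 3 or 2 against 3 samples an exact permutation p cannot go below 0.1. The code was tested on simulated data. Arrays had median intensities of 133.05 to 159.53, and precision is limited by how many there are.

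The genes, lists, contrasts and tests were chosen with earlier results of these data known. Named genes are the members, up to 3 per pathway list and contrast with the smallest p among those that passed, and a fixed set. Replicate numbers were taken to pair samples where all of at least 3 same-numbered pairs of deviations from the group means correlated above 0.1, which held for genotype in CTx muscle at day 8 (0.234 to 0.545) and for the days in DTR- CTx muscle (0.240 to 0.354). This pairing comes from the values, not from the labels. Protein sequences were not used here. Alternatives changed scaling, filter, probe set rule, samples, fit or block.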

Additional observations from a re-analysis of the deposited data

Results flagged for a closer look

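DTR+ xINJ day 4 has 1 sample and entered no comparison. It lay above every DTR- xINJ day 4 sample for 6 of the 9 genes: Gpnmb at a log2 level of 8.91 (against 8.09 to 8.24), Apoe at 10.88 (10.14 to 10.47), Lgals3 at 9.10 (8.30 to 8.65), Cd63 at 10.38 (9.99 to 10.07), Mertk at 7.81 (6.99 to 7.66) and Abca1 at 8.97 (8.51 to 8.73). Of all tested genes, 17.6% lay above all 3 of those samples. The macrophage list stood at 8.27 there and at 7.22 to 7.62 in DTR- xINJ muscle at day 4. The list of muscle stem cells and regenerating fibres was also above, at 8.82 against 7.99 to 8.46. The mature fibre list was below, at 13.39 against 13.43 to 13.55. The part of these cells was not tested.

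The genotype difference in CTx muscle was larger at day 8 than at day 4, by limma's test of the difference itself, for 6 related genes. On the log2 scale it grew by 1.56 for Tfec, 1.52 for Itgb2, 1.48 for C1qa, 1.26 for Csf1r, 1.13 for C1qb and 1.02 for Abcg1 (adjusted p 0.0112 to 0.0477). Over all genes 0.587% passed. Of the lists these genes belong to, 2 of 27 apoptotic cell uptake genes, 1 of 15 of cholesterol efflux, 1 of 16 partners of osteopontin and galectins, 1 of 16 MiT factor and osteoclast-shared genes and 2 of 11 macrophage markers passed. None of 18 passed for TREM2 and DAP12 signalling, of 18 for lipid uptake and storage, of 25 for lysosome and tetraspanin genes or of 20 for cholesterol synthesis. The genotype difference of the macrophage list grew by 0.85. Of monocyte markers 2 of 8 passed (median 1.16, against 0.76 for the macrophage markers). The part of these cells was not tested. The 6 genes are named because they passed. All-gene calls in this test depend on the setting, as given with the processing. They were 78, but 26 in a fit of these groups alone and 30 without replicate 1 of DTR- CTx day 4 and of DTR- xINJ day 4. Whether the 6 genes pass in those settings is not given here.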

How the results depend on the processing

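Counts of called genes among the 9 moved in 2 comparisons, both from 1. For genotype in CTx muscle at day 8 the count was 0 with arrays centred on their median, also when the median was taken over all probe sets, 0 with no filter and 0 with trend and robust eBayes. It was 2 after quantile normalization, 2 with the replicate block and 2 without replicate 1 of DTR- CTx day 4 and of DTR- xINJ day 4 together, and 0 to 1 when a sample was left out. With DTR- xINJ day 4 replicate 1 placed at day 8 it stayed 1, but Mertk passed in place of Lgals3. For genotype in xINJ muscle at day 8 it was 0 after quantile normalization, 0 in a fit of these groups alone, 0 with DTR- xINJ day 4 replicate 1 placed at day 8, and 0 to 1 when a sample was left out. Counts in the other 9 comparisons stayed within 1.5 times. The replicate block changed the call of Mertk in CTx muscle at day 8 and of no other member.

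The centring on the median of all probe sets was added after seeing the data. For Cd63, CTx against xINJ in DTR- mice at day 8, it gave 0.63 (adjusted p = 0.0491), where the planned centring gave 0.62 (adjusted p = 0.0554).

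Every change of sign concerned a difference that passed in neither setting. For genotype in CTx muscle at day 4, Lgals3 was -0.0425 after quantile normalization, Trem2 was 0.0329 with the replicate block and 0.0215 without both replicates 1, and Mertk was -0.0198 and -0.0120. Cd9 at day 8 was 0.0030 after quantile normalization. With the doubtful sample at day 8, xINJ genotype differences were -0.0518 for Apoe and -0.0445 for Fabp5, and day differences in DTR- xINJ muscle were 0.21 for Trem2 and -0.29 for Mertk. Without both replicates 1 the latter were 0.13 and -0.19. Trem2 there was 0.0115 after centring and 0.0340 after quantile normalization. For the genotype difference between muscles, Cd9 was -0.0080 and -0.0097 under the planned and the added centring.

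Leaving out 1 sample gave these ranges across 0. Genotype in CTx muscle at day 4: Gpnmb -0.20 to 0.14, Trem2 -0.19 to 0.15, Apoe -0.13 to 0.0478, Cd9 -0.28 to 0.0387, Cd63 -0.11 to 0.0282, Fabp5 -0.46 to 0.0457, Mertk -0.0120 to 0.28 and Lgals3 -0.0452 to 0.0928. At day 8: Gpnmb -0.12 to 0.48 and Cd9 -0.10 to 0.0769. In xINJ muscle: Trem2 -0.11 to 0.29, Cd9 -0.24 to 0.12, Apoe -0.0977 to 0.18 and Mertk -0.30 to 0.50. Genotype between days: Cd9 -0.0420 to 0.28 and Gpnmb -0.0504 to 0.55. Genotype between muscles: Cd9 -0.13 to 0.23 and Lgals3 -0.43 to 0.11. Days in DTR- xINJ muscle: Trem2 -0.16 to 0.13, Mertk -0.19 to 0.15 and Cd63 -0.26 to 0.0436.

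Over all genes, calls for genotype in xINJ muscle were 347, and 602 with the doubtful sample at day 8. For the genotype difference between days they were 78, and 26 to 153 over the alternatives besides leaving out 1 sample. Between muscles they were 31, and 57 or 55 with the doubtful sample at day 8 or the block. For the days in DTR+ CTx muscle they were 1471, and 841 in a fit of these groups alone. For the days in DTR- xINJ muscle they were 9, and 0 to 20 over the same alternatives. Centring moved the median of all genes to -0.13 in CTx against xINJ at day 4 in DTR- mice and to -0.12 at day 8 in DTR+ mice. Genes called higher in CTx muscle were 3472 of 6190 and, centred, 2978 of 6950 for DTR- at day 4, 1378 of 1799 and 1049 of 1810 for DTR- at day 8, and 2223 of 3353 and 1582 of 3624 for DTR+ at day 8. After quantile normalization they were 3048 of 6723, 1256 of 2070 and 1998 of 3777. Genes that rose over the days in DTR+ CTx muscle were 377 of 1471, and 648 of 1646 after quantile normalization. The causes were not tested.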
